A study of Mus musculus with 4 samples.

Results

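The 10 effector genes of cytotoxic lymphocytes examined here were Gzma, Gzmb, Gzmc, Gzmk, Prf1, Ifng, Fasl, Nkg7, Klrd1 and Klrk1. Each was found by its symbol, and each matched 1 of the 55488 genes counted. Their transcripts were measured by scRNA-seq in 4 libraries, each from the liver of 1 untreated mouse whose HC and NPC fractions were prepared apart and pooled for loading. The WT mouse was genetically unmodified. The YAPKO mouse carried Alb-Cre and YAP fl/fl, the TAZKO mouse Alb-Cre and TAZ fl/fl, and the double knock-out mouse, termed DKO, Alb-Cre with both floxed genes. Cre under the albumin promoter acts in HCs and BECs, so by design YAP and TAZ are not deleted in lymphocytes, which was not tested here. The age of these mice is not given in the sources used here. The question addressed was at which level the effector genes are found in hepatic lymphocytes when YAP, TAZ or both are missing from the neighbouring HCs and BECs.

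Cytotoxic lymphocytes, mainly NK cells and CD8 T cells, kill other cells by releasing granules into the contact zone. Perforin, the product of Prf1, forms pores in the target cell membrane, and granzymes, serine proteases encoded by the Gzm genes, enter the target cell and start its death. Nkg7 encodes a granule membrane protein that is needed for efficient degranulation. Fasl encodes the ligand of the death receptor FAS, and Ifng encodes interferon-γ, a cytokine that activates macrophages and raises antigen presentation. Klrd1 encodes CD94, which pairs with NKG2 chains to read non-classical MHC molecules, and Klrk1 encodes the activating receptor NKG2D, which recognizes stress-induced ligands. The liver is rich in NK cells, innate-like T cells and type 1 innate lymphoid cells.

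Several of the genes lie next to each other in the genome (coordinates of GRCm38). Gzma (ENSMUSG00000023132, chr13:113093825-113100981, minus strand) lies 70626 bp from Gzmk (ENSMUSG00000042385, chr13:113171608-113225908, minus strand), whose annotated interval overlaps Esm1 on the opposite strand. Gzmb (ENSMUSG00000015437, chr14:56258838-56262260) and Gzmc (ENSMUSG00000079186, chr14:56231441-56234656) are both on the minus strand and 24181 bp apart. Klrd1 (ENSMUSG00000030165, chr6:129591782-129598775, plus strand) and Klrk1 (ENSMUSG00000030149, chr6:129610323-129623864, minus strand) are separated by 11547 bp. Prf1 (ENSMUSG00000037202, chr10:61297833-61304680), Ifng (ENSMUSG00000055170, chr10:118441046-118445892), Fasl (ENSMUSG00000000817, chr1:161780689-161788495, minus strand) and Nkg7 (ENSMUSG00000004612, chr7:43437073-43438249) stand alone, with Prf1, Ifng and Nkg7 on the plus strand. Ifng shares its position and strand with the unnamed gene Gm49751, so reads of the locus may be divided between both entries.

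Because Gzma and Prf1, with the libraries summed, were highest in one group of lymphocytes and Gzmb and Gzmc in another, as described further on, the 250 bases before the start of these 4 genes are shown to let the pairs be compared. The sequences are those of RefSeq for GRCm38.p6 and are written 5′ to 3′ on the strand of the gene, at chr13:113100982-113101231 for Gzma, chr10:61297586-61297835 for Prf1, chr14:56262335-56262584 for Gzmb and chr14:56234658-56234907 for Gzmc. Capitals mark matches, on either strand, to the letters TGTGGT (RUNX), AGGTGTGA (T-box), TGACGTCA (cyclic AMP response element, CRE) and TGANTCA (AP-1).
Gzma: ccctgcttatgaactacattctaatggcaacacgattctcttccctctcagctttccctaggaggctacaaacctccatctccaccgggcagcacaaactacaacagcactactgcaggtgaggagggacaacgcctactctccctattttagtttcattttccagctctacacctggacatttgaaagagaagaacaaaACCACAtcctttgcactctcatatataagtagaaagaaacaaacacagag
Prf1: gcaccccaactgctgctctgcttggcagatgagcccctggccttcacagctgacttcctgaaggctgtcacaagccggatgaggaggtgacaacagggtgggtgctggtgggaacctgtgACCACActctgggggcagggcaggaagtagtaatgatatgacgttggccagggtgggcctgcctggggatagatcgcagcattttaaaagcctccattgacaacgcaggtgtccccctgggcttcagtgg
Gzmb: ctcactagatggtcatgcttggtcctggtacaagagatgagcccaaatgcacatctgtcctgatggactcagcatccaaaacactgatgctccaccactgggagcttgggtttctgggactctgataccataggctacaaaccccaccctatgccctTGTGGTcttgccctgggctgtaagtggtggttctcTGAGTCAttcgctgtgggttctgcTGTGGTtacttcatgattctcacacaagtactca
Gzmc: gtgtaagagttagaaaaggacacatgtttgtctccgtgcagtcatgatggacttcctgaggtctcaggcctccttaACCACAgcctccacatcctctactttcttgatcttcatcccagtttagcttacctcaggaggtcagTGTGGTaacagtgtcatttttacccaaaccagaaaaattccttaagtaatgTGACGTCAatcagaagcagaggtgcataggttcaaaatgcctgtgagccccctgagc
The RUNX letters were found in all 4, in Gzma 50 to 45 bases before the start on the opposite strand, in Prf1 130 to 125 bases before it on the opposite strand, in Gzmb at 93 to 88 and at 34 to 29 bases, and in Gzmc at 174 to 169 (opposite strand) and 108 to 103 bases. AP-1 letters were present in Gzmb alone of the 4, 58 to 52 bases before the start, and CRE letters in Gzmc alone, at 57 to 50 bases. No match overlapped another. Of the 10 genes, 9 had an entry in the RefSeq table, all but Klrd1, and 6 of these 9 held the RUNX letters (Gzma, Gzmb, Gzmc, Klrk1, Nkg7 and Prf1), against 14% of 32851 mouse promoters of the same length. The T-box letters occurred in Nkg7 alone of the 9 (1.12% of all promoters), the CRE letters in 1 (1.55%) and the AP-1 letters in 1 (6.75%). A match of letters is a description of the sequence and was not tested as a binding site.

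Of 44974 barcodes, 30362 were kept (500 to 6000 genes and no more than 10% mitochondrial UMIs), 7155 in WT, 6275 in YAPKO, 8638 in TAZKO and 8294 in DKO. A UMI (unique molecular identifier) marks 1 captured transcript near its 3′ end, so levels are not divided by gene length. Total UMIs per library were between 49022089 and 85989454, and the median per kept cell ranged from 3555.5 in TAZKO to 7337 in YAPKO. In HC-like cells, Yap1 was at 21.4 CPM in WT, 4.81 in YAPKO, 47.0 in TAZKO and 4.5 in DKO, and Wwtr1, which encodes TAZ, was at 5.12, 13.2, 2.45 and 2.35 CPM, so that both genes were lower than in WT where their deletion is labelled. Libraries shared between 9 and 26 kept barcodes per pair. Clusters were named from marker genes, with the 10 effector genes left out of the clustering, which gave 84, 184, 102 and 103 NK-like cells and 336, 568, 739 and 793 T-like cells in WT, YAPKO, TAZKO and DKO. All 8 NK cell markers were detected in the NK-like cells of each library. A UMI of a T cell marker was also carried by 88.1% of these cells in WT, 90.8% in YAPKO, 91.2% in TAZKO and 97.1% in DKO. The class may therefore not be purely NK cells. A UMI of an HC marker was found in 100%, 91.8%, 100% and 92.2% of them, in the same order. One marker UMI thus does not identify a cell, and how many of these cells are T cells was not tested. RNA of HCs was present in the lymphocytes to different extents, and the summed level of 6 HC markers in T-like cells was 5984 CPM in WT, 1192 in YAPKO, 7715 in TAZKO and 4546 in DKO. Since each genotype is 1 mouse, differences between libraries could not be set against the spread between mice, no p-value is given, and the 95% intervals (exact Poisson for levels, exact conditional binomial for ratios) cover counting error only. Fewer transcripts per cell and fewer expressing cells cannot be told apart in summed levels, for which reason cells with a UMI are given beside many of them.

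The effector genes were mostly found in lymphocytes. NK-like and T-like cells held 79.5% of the 60524 UMIs of the 10 genes, 43.3% in NK-like and 36.2% in T-like cells. This share was 83.0% in WT, 83.1% in YAPKO, 76.3% in TAZKO and 70.9% in DKO. It was largest for Gzma (89.7%), Prf1 (85.4%), Gzmb (84.2%), Fasl (83.7%), Nkg7 (82.5%) and Gzmc (82.0%), followed by Ifng (76.2%) and Gzmk (75.8%), and it was lowest for the receptor genes Klrd1 (62.0%) and Klrk1 (57.1%). With the 4 libraries summed, NK-like cells had the highest level of every gene except Gzmk, which was at 40.5 CPM in T-like and 9.6 CPM in NK-like cells. Gzma was at 6383 CPM in NK-like and 187 CPM in T-like cells, and Prf1 at 439 and 35 CPM. For Ifng the levels in both classes were close, 43.4 CPM in NK-like and 32.8 CPM in T-like cells. Outside these classes, a T cell and EC cluster with many likely doublets and a cluster of dividing cells held 4.4% and 4.5% of the UMIs.

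**Figure D1:**
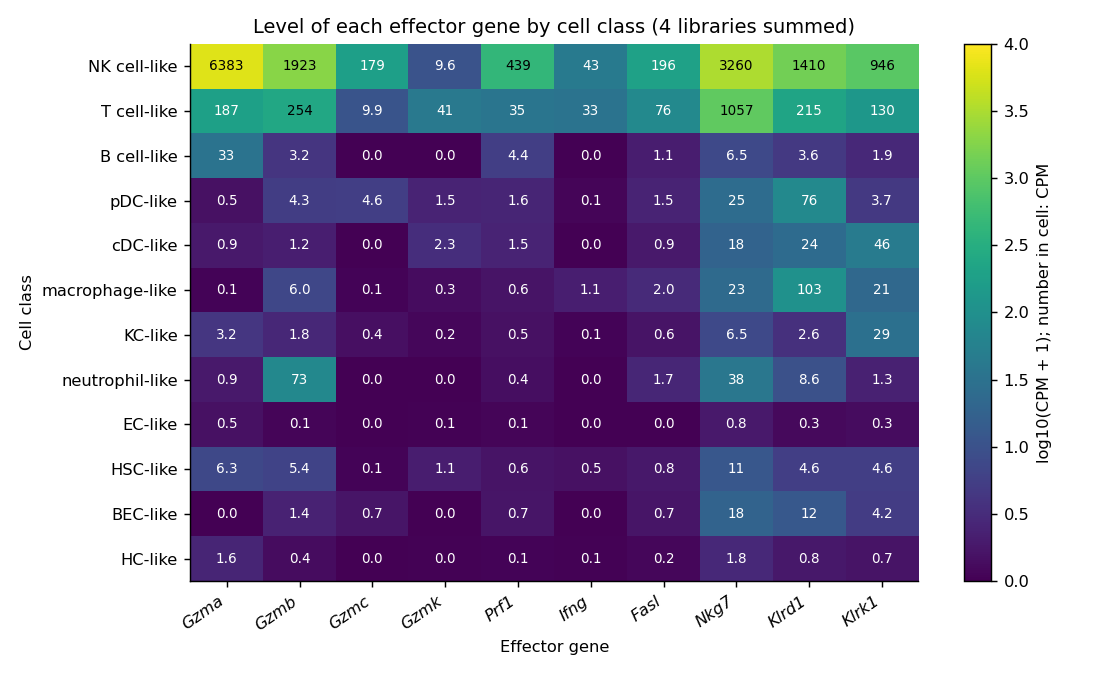
Level of the 10 effector genes (columns) in the 12 named cell classes (rows), with the UMIs of the 4 libraries summed. Colour is log10(CPM + 1) and the printed number is the level in CPM. NK-like and T-like cells are brightest for every gene, Gzmk is higher in T-like cells, and Klrd1 and Klrk1 also appear in myeloid classes.

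In other classes, high values of the granzymes came from very few cells. In B-like cells, which should lack these genes, all 47 Gzma UMIs of WT were in 1 cell and the 152 Gzma UMIs of YAPKO were in 4 cells. In neutrophil-like cells of YAPKO, 142 Gzmb UMIs were in 4 of 401 cells, 104 of them in 1 cell. By contrast, the receptor genes were spread over many myeloid cells. Klrk1 had 296 UMIs in 226 of 830 KC-like cells of WT, and its level in KC-like cells was 29.5 CPM in WT, 25.4 in YAPKO, 57.1 in TAZKO and 15.7 in DKO. Klrd1 in macrophage-like cells was at 82.4 CPM in WT, 58.7 in YAPKO, 207 in TAZKO and 127 in DKO. In pDC-like cells, Klrd1 was at 55.4, 63.5, 188 and 32.4 CPM in the same order. TAZKO was thus the highest library for Klrk1 in KC-like cells and for Klrd1 in macrophage-like and pDC-like cells. In TAZKO, Klrd1 was higher in macrophage-like and pDC-like than in T-like cells (162 CPM), with NK-like cells (1129 CPM) far above all of them.

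Among NK-like cells, the granule genes Gzma, Gzmb, Gzmc and Prf1 were lower in the TAZKO and DKO libraries than in WT. Gzma was at 8464 CPM in WT (95% interval 8153 to 8785, UMIs in 63 of 84 cells), 7712 CPM in YAPKO (7519 to 7910, 104 of 184 cells), 5158 CPM in TAZKO (4927 to 5397, 71 of 102 cells) and 2154 CPM in DKO (1992 to 2326, 34 of 103 cells). The 4 intervals did not overlap, and DKO was the lowest library by level and by share of cells. Relative to WT, its log2 ratio was −0.13 (−0.20 to −0.07) in YAPKO, −0.71 (−0.80 to −0.63) in TAZKO and −1.97 (−2.10 to −1.85) in DKO. In WT, Gzma was the fifth gene by UMIs of all those detected in NK-like cells and took 0.846% of their UMIs. Prf1 was at 492 CPM in WT, 538 in YAPKO, 370 in TAZKO and 212 in DKO, with UMIs in 47, 118, 58 and 38 cells. Only the DKO interval (163 to 270 CPM) lay below those of the 3 other libraries, with a log2 ratio to WT of −1.22 (−1.66 to −0.79).

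Of the granzymes of the chromosome 14 cluster, Gzmb had another order of libraries than Gzma. Gzmc had the same order by level, but WT and YAPKO were not apart beyond counting error, nor were TAZKO and DKO. Gzmb in NK-like cells was at 2919 CPM in WT (2737 to 3109), 2058 in YAPKO (1958 to 2161), 1013 in TAZKO (912 to 1123) and 1582 in DKO (1443 to 1730), so that TAZKO and not DKO was the lowest. Its log2 ratio was −0.50 (−0.62 to −0.39) in YAPKO, −1.53 (−1.70 to −1.35) in TAZKO and −0.88 (−1.05 to −0.72) in DKO. Gzmc had 81, 156, 45 and 35 UMIs in 13, 29, 7 and 11 NK-like cells, which gave 246 CPM in WT, 200 in YAPKO, 124 in TAZKO and 116 in DKO. WT and YAPKO were above TAZKO and DKO, with log2 ratios of −0.99 (−1.54 to −0.44) in TAZKO and −1.09 (−1.70 to −0.50) in DKO. Gzmk was near its limit of detection in NK-like cells, with between 2 and 10 UMIs per library.

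None of the remaining members was 2-fold apart from WT in NK-like cells. Nkg7 was at 3307 CPM in WT, 3822 in YAPKO, 2452 in TAZKO and 2726 in DKO, and was lower than WT in TAZKO and DKO by a log2 ratio of −0.43 (−0.56 to −0.30) and −0.28 (−0.41 to −0.15). Fasl was at 149, 249, 116 and 208 CPM and was higher than WT beyond counting error in YAPKO (log2 ratio 0.74, 0.28 to 1.22). Klrd1 was at 1506, 1496, 1129 and 1419 CPM, with TAZKO the one library apart from WT (−0.42, −0.61 to −0.22). Klrk1 (914, 1010, 892 and 883 CPM) and Ifng (51.6, 32.1, 52.5 and 52.9 CPM) had ratios to WT whose intervals included 0 in all 3 knock-out libraries. For Ifng the interval in YAPKO was wide, with a log2 ratio of −0.69 that rests on few UMIs.

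Over all genes with at least 10 UMIs in a pair of libraries, 8.23% were at least 2-fold higher and 6.36% at least 2-fold lower than WT in NK-like cells of YAPKO, 14.6% and 6.84% in TAZKO, and 9.37% and 7.92% in DKO. None of the 10 members passed this fold in YAPKO, Gzmb alone of 9 was lower in TAZKO, and Gzma, Gzmc and Prf1 of 9 were lower in DKO. The median log2 ratio of the members was 0.06 in YAPKO, −0.42 in TAZKO and −0.28 in DKO, against 0.06, 0.10 and 0.12 for all genes counted. No member was higher by this fold in any library. These counts depend on the processing. Without correction by library, Gzma alone passed in DKO (−1.76), with Prf1 at −0.91 and Gzmc at −0.73, and with the top 8% of doublet scores left out, 2 members passed in YAPKO (Gzmk at 1.03, from few UMIs, and Ifng at −1.02), 2 in TAZKO (Gzmb and Gzmc) and 4 in DKO.

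**Figure D2:**
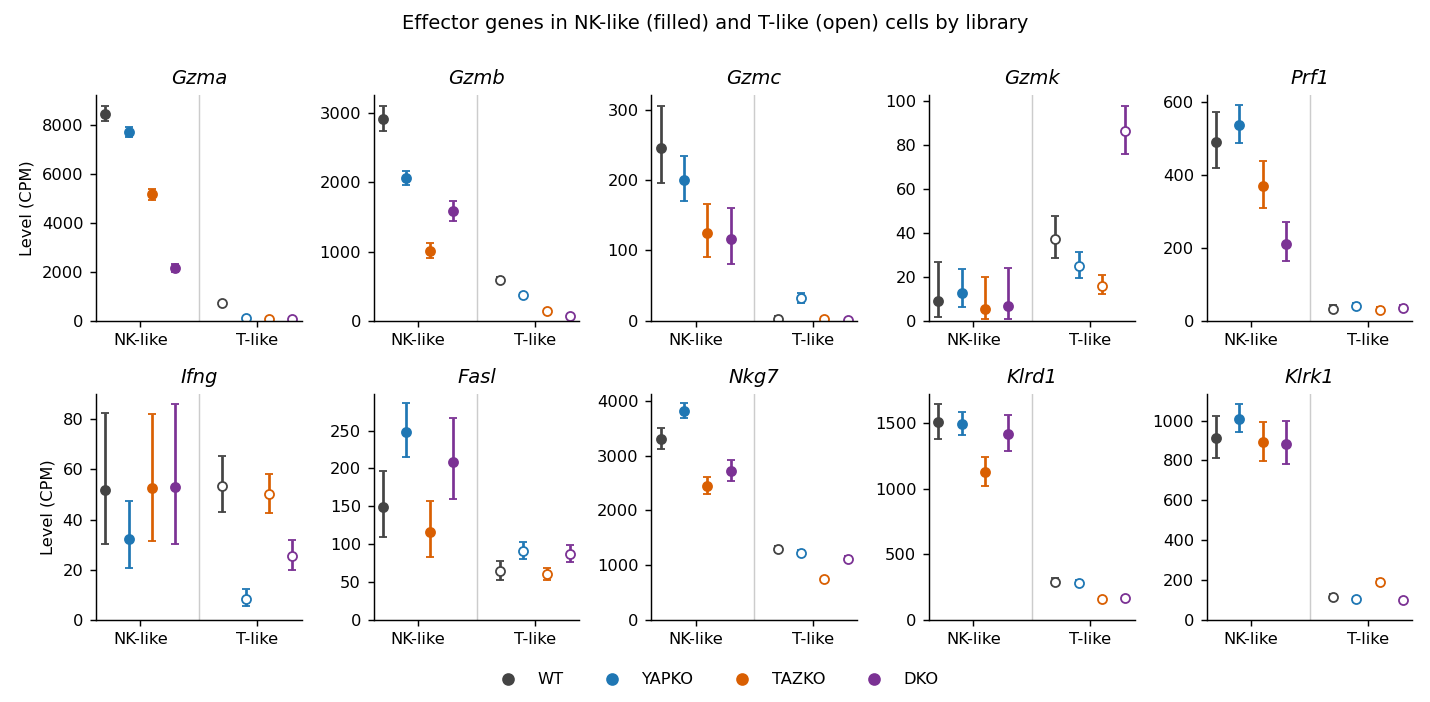
Level (CPM) of each effector gene in NK-like cells (filled points) and T-like cells (open points) of the 4 libraries, with exact 95% Poisson intervals as bars. Each panel has its own axis, which starts at 0. Gzma and Prf1 are lowest in NK-like cells of DKO, Gzmb is lowest in NK-like cells of TAZKO and in T-like cells of DKO, and Gzmk is highest in T-like cells of DKO.

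Shares of cells were compared at an equal depth because the median number of UMIs in NK-like cells was 3931 in WT, 4054 in YAPKO, 3374.5 in TAZKO and 2857 in DKO. After thinning to 1000 UMIs per cell, which left out 2 DKO cells and none of the other libraries, Gzma was detected in 69.0% of NK-like cells of WT, 52.2% of YAPKO, 59.8% of TAZKO and 29.7% of DKO. Without thinning these shares were 75%, 56.5%, 69.6% and 33.0%. In B-like cells, with median depths of 2185.5 to 2945.5 UMIs, the unthinned share was between 0.230% and 0.922%. Gzmb was found in 66.7%, 58.2%, 38.2% and 46.5% of thinned NK-like cells and Prf1 in 33.3%, 34.8%, 22.5% and 16.8%, in the order WT, YAPKO, TAZKO and DKO. Nkg7 was found in 85.3% to 92.1% in the 4 libraries. Without thinning, Gzmb was found in 86.9%, 77.2%, 68.6% and 56.3% and Prf1 in 56.0%, 64.1%, 56.9% and 36.9%. DKO had the lowest share for Gzma and Prf1 with and without thinning, but for Gzmb TAZKO was lowest after thinning and DKO before it. The thinned intervals of TAZKO and DKO overlapped for Gzmb (28.8% to 48.4% and 36.5% to 56.7%) and for Prf1.

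After thinning, the share of NK-like cells with transcripts of several effector genes at the same time was also lower in TAZKO and DKO than in WT, for TAZKO not always beyond counting error. At 1000 UMIs per cell, Gzma, Gzmb and Prf1 together were found in 19.0% of NK-like cells of WT, 17.4% of YAPKO, 7.84% of TAZKO and 3.96% of DKO. Without thinning these shares were 41.7%, 41.3%, 38.2% and 12.6%, so that TAZKO was near WT before depth was made equal. The thinned intervals of WT (11.3% to 29.1%) and TAZKO (3.45% to 14.9%) overlapped, while that of DKO (1.09% to 9.83%) lay below WT. At least 5 of the 10 members were detected in 42.9%, 38.0%, 20.6% and 20.8% of the thinned cells, and in 88.1%, 82.6%, 76.5% and 53.4% without thinning. These thinned shares were added after seeing the data. The summed T cell markers in NK-like cells were at 3007 CPM in WT, 2708 in YAPKO, 2419 in TAZKO and 5453 in DKO, and the summed NK cell markers at 4480, 4675, 5089 and 4020 CPM. T cell transcripts were thus highest in DKO, where the granule genes were low, but lowest in TAZKO. Among NK-like cells with a T cell marker UMI (74, 167, 93 and 100 cells), the log2 ratio of Gzma to WT was −0.19 in YAPKO, −0.69 in TAZKO and −1.86 (−1.99 to −1.73) in DKO, that of Gzmb −0.63, −1.64 and −0.97, and that of Prf1 0.10, −0.28 and −1.1 (−1.58 to −0.64). The interval of Prf1 in TAZKO (−0.66 to 0.10) included 0 in these cells, whereas over all NK-like cells its ratio was −0.41 (−0.75 to −0.07). NK-like cells without any T cell marker UMI were few, 10 in WT, 17 in YAPKO, 9 in TAZKO and 3 in DKO, and had Gzma at 15358, 24354, 11059 and 4218 CPM, Prf1 at 1144, 2055, 770 and 1018 CPM and Gzmb at 887, 2409, 1013 and 0 CPM. For the 0 in the 3 DKO cells, 3 UMIs would be 436 CPM, and the exact interval reaches 537 CPM. In these few cells Gzmb was thus highest in YAPKO and not lower in TAZKO than in WT, and the intervals of Prf1 in TAZKO and DKO overlapped that of WT.

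T-like cells of the libraries differed mainly in Gzma, Gzmb, Gzmk and Ifng. Gzmb was at 591 CPM in WT (555 to 629, UMIs in 116 of 336 cells), 371 in YAPKO (349 to 394, 143 of 568 cells), 135 in TAZKO (123 to 148, 146 of 739 cells) and 74.6 in DKO (65.0 to 85.3, 64 of 793 cells). No interval overlapped another, and the order from WT to DKO was the same by level and by share of cells. The log2 ratio of Gzmb to WT was −0.67 (−0.80 to −0.55) in YAPKO, −2.13 (−2.30 to −1.97) in TAZKO and −2.99 (−3.21 to −2.77) in DKO. After thinning, 20.2% of T-like cells of WT, 15.3% of YAPKO, 9.47% of TAZKO and 3.54% of DKO had a Gzmb UMI. Gzmk, a granzyme of memory-type CD8 T cells, was at 37.3 CPM in WT, 24.7 in YAPKO, 16 in TAZKO and 86.4 in DKO, with UMIs in 19, 33, 32 and 132 cells. Here DKO was the highest library, with a log2 ratio of 1.21 (0.81 to 1.64), and TAZKO the lowest (−1.22, −1.78 to −0.67).

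Ifng in T-like cells was at 53.3 CPM in WT, 8.35 in YAPKO, 50.1 in TAZKO and 25.3 in DKO (90, 24, 166 and 73 UMIs). YAPKO and DKO were lower than WT, by a log2 ratio of −2.67 (−3.39 to −2.01) and −1.07 (−1.54 to −0.61), and TAZKO was not apart from it (−0.09). In DKO, 29.8% of all Ifng UMIs (50 UMIs in 9 of 81 cells) lay in the unnamed T cell and EC cluster, where Ifng was at 6.49, 7.83, 20 and 63.0 CPM in WT, YAPKO, TAZKO and DKO. Of these 9 cells, only 1 held 5 or more Ifng UMIs, and it was among the top doublet scores. The DKO level of this cluster thus rests in part on 1 likely doublet. With that cluster counted among the T-like cells, an alternative chosen after seeing the data, the log2 ratio of Ifng was −2.39 (−3.05 to −1.76) in YAPKO, and in DKO it was −0.37 with an interval that included 0 (−0.77 to 0.04), so the DKO difference depends on where those cells are placed. Klrk1 was at 114, 103, 189 and 98.6 CPM, with TAZKO the highest (0.72, 0.49 to 0.96), although the same library had the lowest Nkg7 (739 CPM, against 1287 in WT, 1226 in YAPKO and 1119 in DKO). Klrd1 was at 289 CPM in WT and 282 in YAPKO and lower in TAZKO (162 CPM) and DKO (165 CPM). Fasl (64.5, 91.1, 60 and 86.8 CPM) was higher than WT in YAPKO and DKO, by 0.50 (0.17 to 0.83) and 0.43 (0.10 to 0.77). Prf1 ranged only from 30.2 to 41.4 CPM.

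A pair of T-like values rested largely on few cells. Gzma was at 740 CPM in WT against 123 in YAPKO, 68.2 in TAZKO and 62.8 in DKO, but the 1250 UMIs of WT came from 23 of 336 cells, of which 3 held more than 50% of them. The share of cells with a Gzma UMI was also highest in WT, at 6.85%, against 4.23% in YAPKO, 3.11% in TAZKO and 2.14% in DKO. After thinning these shares were 6.25%, 1.94%, 1.89% and 1.01%. Gzmc in YAPKO was at 31.6 CPM, against 2.96 in WT, 3.02 in TAZKO and 0.347 in DKO, and 86 of its 91 UMIs were in 1 cell, which leaves 5 in all others. Over all genes in T-like cells, 4.58% were at least 2-fold higher and 6.33% at least 2-fold lower than WT in YAPKO, 18.2% and 3.68% in TAZKO, and 9.20% and 3.84% in DKO. Of the members, 3 of 10 passed this fold in YAPKO (Gzmc higher, Gzma and Ifng lower), 3 of 10 in TAZKO (Gzma, Gzmb and Gzmk lower) and 4 of 9 in DKO (Gzmk higher, Gzma, Gzmb and Ifng lower). Their median log2 ratio was −0.11, −0.45 and −0.21, beside 0.06, 0.25 and 0.15 for all genes counted. These counts depend on how the limits on barcodes are read. With the limits read as UMIs, the members past 2-fold were none of 3 in YAPKO, 1 of 3 in TAZKO and none of 4 in DKO.

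**Figure D3:**
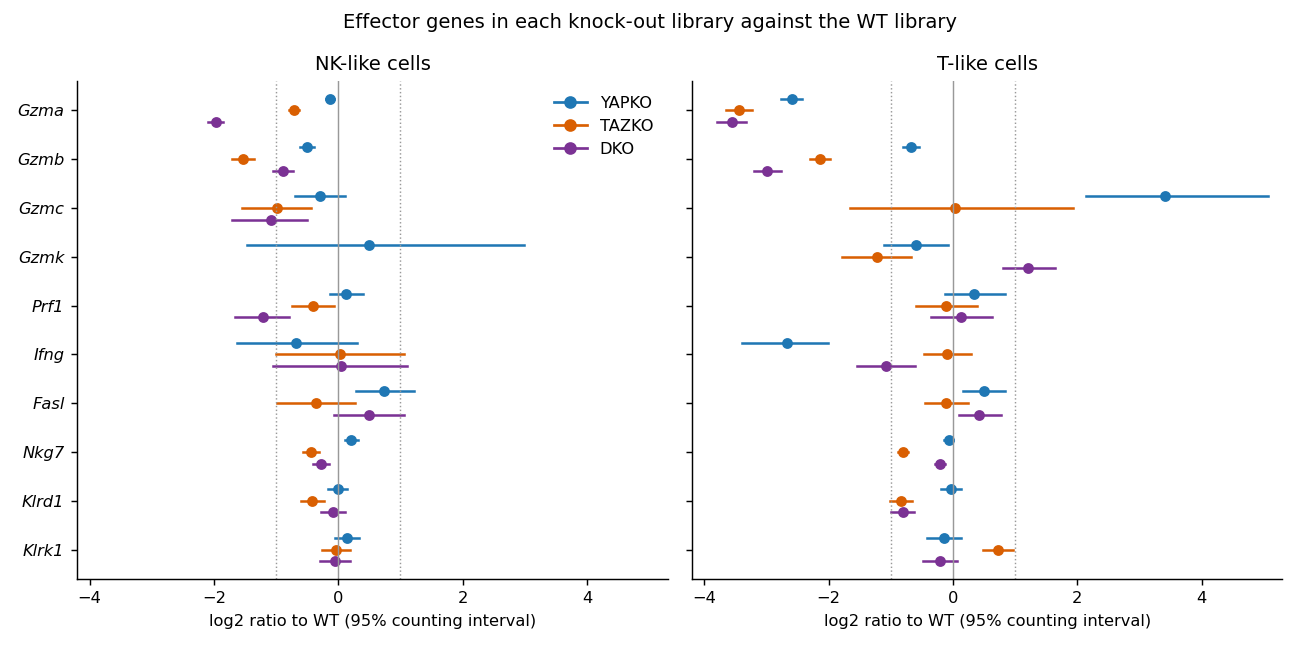
Log2 ratio of each effector gene to WT in NK-like cells (left) and T-like cells (right) for the YAPKO, TAZKO and DKO libraries. Bars are exact 95% counting intervals, dotted lines mark a 2-fold difference, and points are drawn only for genes with at least 10 UMIs over the pair. Gzmb lies left of 0 in all 3 libraries and both classes, and Gzmk in T-like cells lies to the right in DKO only.

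T-like cells were also divided by the UMIs of the coreceptor genes, a division made without clusters. In cells with a Cd8a or Cd8b1 and no Cd4 UMI (101 in WT, 143 in YAPKO, 140 in TAZKO and 207 in DKO), Gzmk was at 83.1, 59.8, 56.9 and 187 CPM and Prf1 at 38.7, 64.6, 42.7 and 96.5 CPM. Gzmk was found in 11.9%, 14%, 15.7% and 39.6% of these cells and Prf1 in 14.9%, 28.0%, 14.3% and 23.7%, not thinned. By level, both were highest in DKO, with log2 ratios to WT of 1.17 (0.67 to 1.69) and 1.32 (0.59 to 2.11). By share of cells, Gzmk was highest in DKO but Prf1 in YAPKO. Nkg7 also had its highest level in DKO (2177 CPM, against 1692 in WT, 1578 in YAPKO and 844 in TAZKO). Gzmb in these CD8 cells was at 795, 327, 163 and 213 CPM, highest in WT, but cells with a UMI were nearly as frequent in DKO (22.2%) as in WT (25.7%), with 17.5% in YAPKO and 16.4% in TAZKO. The 1040 Gzma UMIs of the WT CD8 cells were in 12 cells. In cells with a Cd4 and no CD8 UMI (41, 96, 157 and 165 cells), Gzmb was at 235 CPM in WT, 105 in YAPKO, 109 in TAZKO and 16 in DKO, in 8, 16, 21 and 3 cells, and Gzmk at 40.0, 22.4, 7.08 and 88.3 CPM, in 4, 6, 4 and 28 cells. Of the members counted in these CD4 cells, 4 of 9 in YAPKO, 2 of 7 in TAZKO and 3 of 7 in DKO were at least 2-fold higher than WT and 2, 3 and 3 were lower, beside 11.4%, 22.3% and 16.8% of all genes higher and 5.81%, 7.99% and 5.95% lower. Klrd1 and Klrk1 were among the higher ones in all 3 libraries, on 2 and 1 UMIs in WT, and all 86 UMIs of the higher Gzmc of YAPKO were in 1 cell. The largest group had no UMI of either coreceptor (191, 320, 432 and 411 cells) and held Gzmb at 575, 478, 134 and 24 CPM, with a UMI in 41.9%, 31.2%, 23.4% and 3.65% of cells. Within this group the log2 ratio of Gzmb was −0.27 (−0.43 to −0.10) in YAPKO, −2.10 (−2.32 to −1.89) in TAZKO and −4.56 (−5.10 to −4.07) in DKO. Of the members counted in these cells, 1 of 9 in YAPKO, 3 of 10 in TAZKO and 4 of 9 in DKO were at least 2-fold lower than WT, beside 6.89%, 4.64% and 4.70% of all genes. Higher by this fold were none, none and 1 (Gzmk in DKO), beside 5.83%, 18.4% and 9.58% of all genes. In the CD8 cells, 3 of 9 in YAPKO and 3 of 9 in TAZKO were lower and none higher, whereas in DKO 4 of 9 were lower (Gzma, Gzmb, Klrd1 and Klrk1) and 4 higher (Gzmk, Prf1, Ifng and Fasl). Of all genes in the CD8 cells, 6.40%, 5.91% and 4.08% were lower and 7.13%, 16.4% and 13.8% higher by this fold.

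To separate the kinds of lymphocytes, the NK-like and T-like cells were clustered again together, without the effector genes. Each effector gene then had its own pattern over 9 subclusters, of which subclusters 3 and 8 carried HC or EC genes and had over 50% of their cells among the top doublet scores. Gzma and Prf1 were highest in subcluster 4 (196 cells, leading genes Klra4, Cma1, Zeb2, Irf8 and Klra8), at 11796 and 885 CPM over the 4 libraries. Its top 10 genes also held Jchain, Igha, S100a9 and S100a8, genes of plasma cells and neutrophils, of which S100a8 was found in 5 of 74 cells of YAPKO and in none of the 3 other libraries. The next subcluster was at 2268 CPM for Gzma and 174 CPM for Prf1. Gzmb and Gzmc were highest in subcluster 2 (339 cells, leading genes Cd7, Xcl1, Fcer1g, Ncr1, Tyrobp and Cd160), at 2521 and 271 CPM, followed by 810 and 31.6 CPM elsewhere. Gzmk was highest in subcluster 6 (109 cells, leading genes Ccl4, Lag3, Ccl3, Cd8a and Pdcd1) at 357 CPM, followed by 58.3 CPM. With the libraries summed, Klrd1 was highest in subcluster 2 (1415 CPM, followed by 1212) and Klrk1 in subcluster 4 (948 CPM, followed by 785), but libraries differed in this. Klrd1 in subclusters 2 and 4 was at 1482 and 1557 CPM in WT and 1532 and 1503 CPM in YAPKO, where the intervals overlapped, and at 1175 and 880.0 CPM in TAZKO and 1323 and 797 CPM in DKO. Klrk1 in subclusters 4 and 2 was at 1163 and 607 CPM in WT, 1074 and 890.2 CPM in YAPKO and 944 and 825 CPM in TAZKO, while in DKO subcluster 2 was the higher (550 and 710.4 CPM, with overlapping intervals). For Nkg7 the first 2 levels, 4023 CPM in subcluster 6 and 3967 CPM, did not differ beyond their intervals, and the same was true of Ifng and Fasl.

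By UMIs, subcluster 4 held 62.2% of Gzma and 53.8% of Prf1, subcluster 2 held 55.3% of Gzmb and 86.1% of Gzmc, and subcluster 6 held 31.3% of Gzmk. Subcluster 0 (913 cells, leading genes Il4, Art2a, Mmp9, Lyst and Socs2) held 51.4% of Ifng and 46.0% of Fasl. Gzmc, at 271 CPM in subcluster 2, had no UMI in the 196 cells of subcluster 4, where 3 UMIs would be 4.27 CPM, although both subclusters came mainly from NK-like cells (273 of 339 and 173 of 196). Subcluster 1, with 829 cells led by Dapl1 and Ccr7, held Gzma at 6.06, Gzmb at 13.6 and Prf1 at 32.1 CPM over the libraries. In it, Gzmb had 35 UMIs in YAPKO against 2 in WT (log2 ratio 3.17, 1.21 to 6.27), from few cells. Of 236 YAPKO cells, 7 had Gzmb without Gzma and 2 had both, against 2 and 0 of 128 WT cells. After thinning, Gzmb without Gzma was found in 4 cells of YAPKO and 0 of WT. Gzmk had 35 UMIs in DKO against 3 in WT (3.23, 1.57 to 5.58). Klrd1 was lower than WT there in TAZKO (−0.68, −1.07 to −0.29) and DKO (−0.79, −1.22 to −0.36). Subcluster 5, with Foxp3 and Ctla4 as leading genes of regulatory T cells, had Gzma at 1466 CPM in WT, from 3 of 22 cells, and between 0 and 187 CPM elsewhere.

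**Figure D4:**
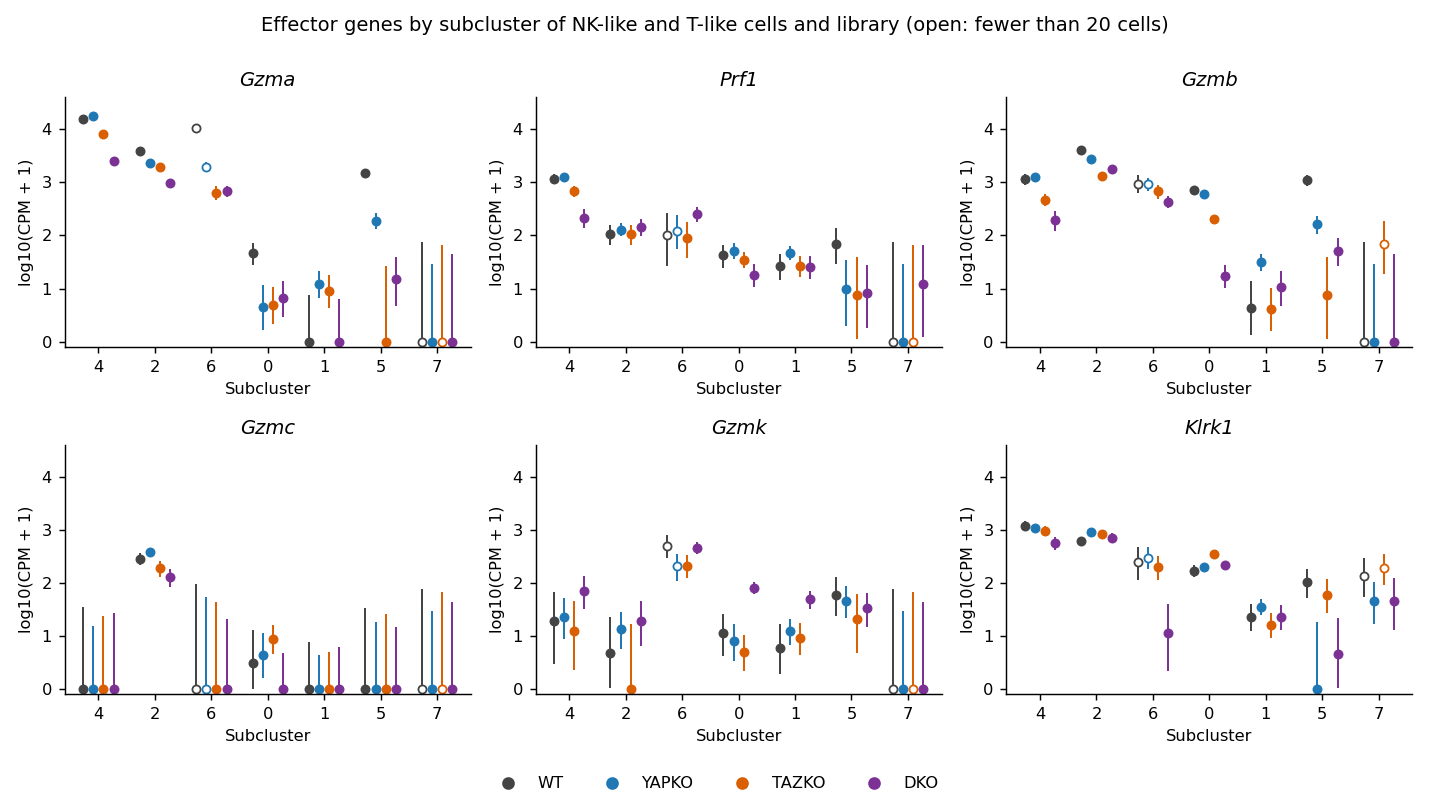
Level of 6 effector genes, as log10(CPM + 1), in 7 subclusters of NK-like and T-like cells for each library, with exact 95% Poisson intervals. Open points stand for fewer than 20 cells, and subclusters 3 and 8 are left out. Gzma peaks in subcluster 4, Gzmb and Gzmc in subcluster 2 and Gzmk in subcluster 6 in each library, Prf1 peaks in subcluster 4 except in DKO, where subcluster 6 is as high, and Gzmb in subcluster 0 is lowest in DKO.

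The libraries stood apart in this second clustering when it was run without the correction by library. The cells of subcluster 0 then fell into 3 separate subclusters, which held 96 of the 103 WT and 156 of the 189 YAPKO cells, 272 of the 299 TAZKO cells and 296 of the 322 DKO cells, so that no ratio to WT could be given there for TAZKO and DKO. The cells of subcluster 4 stayed together except for those of DKO, of which 18 of 41 were in the matching subcluster. In subcluster 2, most cells of all libraries stayed together (63 of 64, 119 of 122, 51 of 64 and 80 of 89). Ratios for subcluster 0 therefore compare cells that differ between libraries in more than the effector genes.

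Subcluster 4 had the highest Gzma in each library and the highest Prf1 in WT, YAPKO and TAZKO. Gzma was at 15776 CPM in WT (30 of 32 cells with a UMI), 17504 in YAPKO (72 of 74), 8077 in TAZKO (43 of 49) and 2453 in DKO (18 of 41). Prf1 was at 1145, 1272, 672 and 213 CPM and Gzmb at 1128, 1228, 463 and 192 CPM. WT and YAPKO were close to each other for all 3 genes, TAZKO was lower and DKO the lowest. DKO differed from WT by a log2 ratio of −2.69 (−2.85 to −2.52) for Gzma, −2.43 (−3.04 to −1.85) for Prf1 and −2.55 (−3.20 to −1.95) for Gzmb. Nkg7 (4340, 5502, 2872 and 2103 CPM) and Klrk1 (1163, 1074, 944 and 550 CPM) were lower in DKO by −1.05 (−1.26 to −0.84) and −1.08 (−1.5 to −0.67). In TAZKO the log2 ratio was −0.97 for Gzma, −0.77 for Prf1 and −1.28 for Gzmb. At least 2-fold lower than WT in subcluster 4 were 7.59% of all genes in YAPKO, 8.37% in TAZKO and 9.11% in DKO. Of the members counted, none of 7 in YAPKO, 1 of 8 in TAZKO and 5 of 9 in DKO were lower by this fold. Higher by this fold were none in YAPKO, Ifng in TAZKO and Gzmk in DKO, on 16 and 10 UMIs, beside 10.9%, 18.0% and 13.4% of all genes.

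Cells with T cell transcripts were more frequent in subcluster 4 of DKO. Cd3e was at 35.8 CPM in WT, 18.3 in YAPKO, 57.9 in TAZKO and 323 in DKO, and a UMI of Cd3d, Cd3e or Cd3g was found in 4 of 32, 13 of 74, 8 of 49 and 26 of 41 cells. NK cell genes were lower at the same time, Ncr1 at 940, 964, 509 and 412 CPM and Klra4 at 1342, 1041, 747 and 385 CPM. When only cells without a CD3 UMI were counted (28, 61, 41 and 15 cells), Gzma was at 17178 CPM in WT, 19407 in YAPKO, 10504 in TAZKO and 7162 in DKO. Prf1 was then at 1278, 1315, 860 and 594 CPM and Gzmb at 1016, 1402, 565 and 368 CPM. All 3 genes remained lowest in DKO, and their DKO and WT intervals did not overlap, but the distance was smaller than over all cells of the subcluster. In TAZKO, the log2 ratio of Gzma to WT was −0.71 (−0.82 to −0.60) in these cells, and the 15 DKO cells were too few for a ratio. In cells with a CD3 UMI, Gzma was at 7557, 11442, 1612 and 944 CPM.

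In subcluster 2, Gzmb was at 4023 CPM in WT, 2699 in YAPKO, 1299 in TAZKO and 1774 in DKO, with UMIs in 57 of 64, 91 of 122, 45 of 64 and 54 of 89 cells. WT was the highest and TAZKO the lowest, with log2 ratios of −1.63 (−1.82 to −1.45) in TAZKO and −1.18 (−1.34 to −1.03) in DKO. Gzmc was at 283, 374, 186 and 126 CPM, in 13, 29, 7 and 11 cells, and YAPKO was the highest library. Gzma was at 3933, 2252, 1943 and 970 CPM, with a log2 ratio of −2.02 (−2.22 to −1.83) in DKO, whereas Prf1 (104, 127, 103 and 141 CPM) did not differ beyond counting error. Most of these cells carried a CD3 UMI (58, 75, 51 and 71 cells), and within those Gzmb was at 4273, 3698, 1488 and 2108 CPM. Members at least 2-fold lower than WT numbered none of 9 in YAPKO, 2 of 9 in TAZKO and 3 of 9 in DKO, with 5.87%, 8.67% and 6.24% of all genes lower by this fold. No member was higher by this fold, beside 9.75%, 12.2% and 9.95% of all genes.

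Subcluster 0 expressed Cxcr6 and Zbtb16, genes of innate-like T cells resident in the liver, and carried Gzmb with almost no Gzma. Gzmb was at 713 CPM in WT, 594 in YAPKO, 205 in TAZKO and 16.2 in DKO. The number of cells with a Gzmb UMI was 62 of 103, 92 of 189, 99 of 299 and 11 of 322. DKO, with 17 UMIs in all, was far below the 3 others, and had a log2 ratio of −5.46 (−6.25 to −4.76), beside −1.80 (−2.03 to −1.56) in TAZKO and −0.26 (−0.46 to −0.06) in YAPKO. Gzmk was highest in DKO, at 10.2, 6.92, 3.90 and 79.2 CPM in 2, 4, 4 and 42 cells, with a log2 ratio of 2.96 (1.68 to 4.62) in DKO. Klrk1 was highest in TAZKO (165, 197, 354 and 215 CPM), with a log2 ratio of 1.1 (0.75 to 1.46), and Nkg7 was lower than WT in TAZKO and DKO (1730, 1815, 1106 and 1095 CPM). Cxcr6 itself was at 840, 906, 581 and 487 CPM and Cd3e at 717, 796, 774 and 788 CPM, so the T cell marker was level while Cxcr6 was lower in TAZKO and DKO. Of the members counted, 2 of 9 in YAPKO, 3 of 10 in TAZKO and 4 of 9 in DKO were at least 2-fold lower than WT, beside 5.06%, 5.03% and 4.93% of all genes. Higher by this fold were none in YAPKO, Gzmc (10 UMIs against 1) and Klrk1 in TAZKO and Gzmk in DKO, beside 6.71%, 17.2% and 10.9% of all genes.

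In subcluster 6, which carried Cd8a and the inhibitory receptor genes Pdcd1 and Lag3, only TAZKO and DKO had more than 20 cells (24 and 62, against 7 in WT and 16 in YAPKO). Gzmk was at 208 CPM in TAZKO and 457 in DKO. Nkg7 was at 1742 and 5242 CPM and Prf1 at 87.6 and 249 CPM in the same libraries. In DKO, the Prf1 level of subcluster 6 (interval 184 to 331) was not apart from that of subcluster 4.

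The combination of both main granzymes in the same cell followed these differences. In subcluster 4, UMIs of Gzma and Gzmb together were found in 81.3% of cells of WT, 82.4% of YAPKO, 63.3% of TAZKO and 17.1% of DKO. Prf1 in addition was found in 71.9%, 78.4%, 61.2% and 14.6%. At 1000 UMIs per cell, Gzma and Gzmb together were found in 50%, 51.4%, 32.7% and 12.2% of these cells, in the same order, and all 3 genes in 40.6%, 39.2%, 14.3% and 7.32%. In subcluster 0, most cells with a UMI of either granzyme had Gzmb without Gzma, which was found in 57.3% of all its cells in WT, 47.6% in YAPKO, 32.8% in TAZKO and 3.42% in DKO. After thinning these shares were 34.0%, 27.5%, 15.1% and 0.935%. Over all T-like cells Gzmb without Gzma was found in 28.3%, 22.0%, 17.7% and 6.94%, and in 16.1%, 13.9%, 8.53% and 3.03% after thinning.

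**Figure D5:**
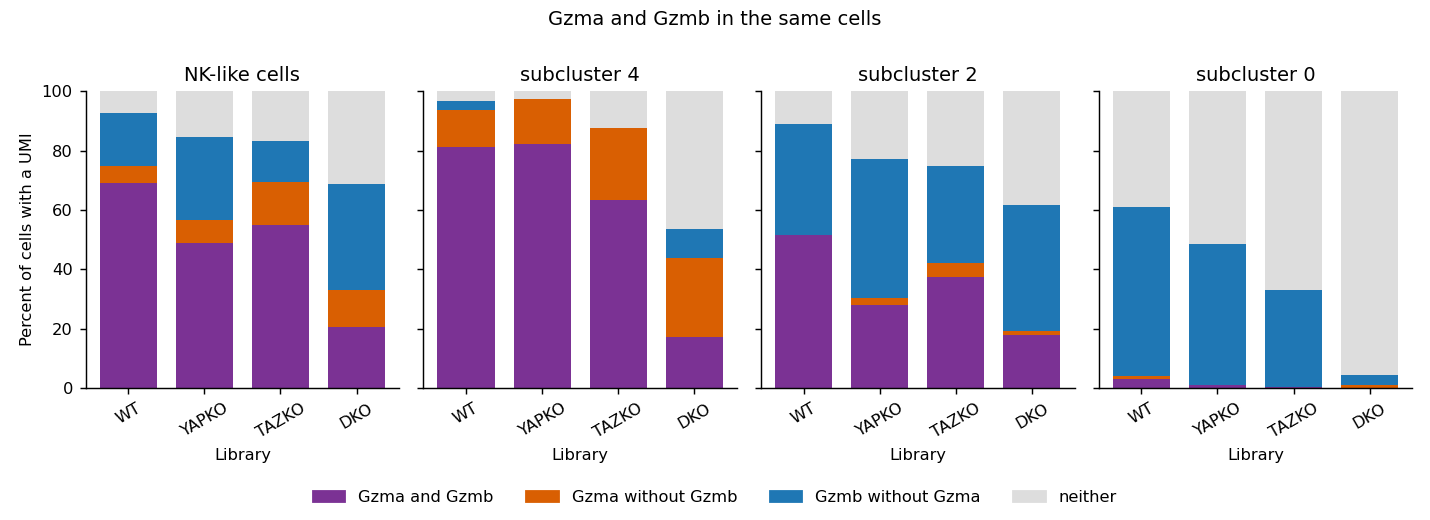
Percent of cells with UMIs of Gzma and Gzmb, of one of them, or of neither, by library, in NK-like cells and in subclusters 4, 2 and 0. Bars add up to 100%, and cells were not thinned. Subcluster 4 is dominated by cells with both genes in WT, YAPKO and TAZKO, subcluster 0 by cells with Gzmb alone or neither, and DKO has the largest share of cells with neither in all 4 panels.

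The genes that work together with the effectors were taken from lists of 70 genes in all, chosen with results of these data known. In NK-like cells, 1 of 51 genes counted in YAPKO (lower), 8 of 52 in TAZKO (6 higher, 2 lower) and 11 of 51 in DKO (4 higher, 7 lower) differed at least 2-fold from WT. For all genes, these shares were 6.36% lower and 8.23% higher in YAPKO, 14.6% higher and 6.84% lower in TAZKO, and 9.37% higher and 7.92% lower in DKO. In T-like cells, 6 of 60 partner genes in YAPKO (3 higher, 3 lower), 15 in TAZKO (7 higher, 8 lower) and 12 in DKO (7 higher, 5 lower) passed this fold, beside 4.58% and 6.33%, 18.2% and 3.68%, and 9.20% and 3.84% of all genes higher and lower. Genes of granule storage and granzyme activation included Srgn, which encodes the proteoglycan serglycin that packs granzymes, and Ctsw, a protease gene of cytotoxic cells. Srgn in NK-like cells was at 1099 CPM in WT, 1187 in YAPKO, 922 in TAZKO and 1307 in DKO, and Ctsw at 896, 1110, 574 and 807 CPM. Unlike Gzma and Prf1, neither was lowest in DKO. Of the granzyme inhibitors, Serpinb6b was at 304, 568, 207 and 470 CPM and Serpina3g at 295, 452, 160 and 255 CPM, both highest in YAPKO and lowest in TAZKO. Of the other granzymes, Gzmm had 9 UMIs in all NK-like and 67 in all T-like cells, and Gzmd had none in either. In the exocytosis list, Lyst, which encodes a regulator of lysosome trafficking, was at 100, 73.1, 82.8 and 218 CPM, and higher in DKO by a log2 ratio of 1.12 (0.50 to 1.77). Vamp8, which encodes a SNARE protein of granule fusion, was at 219, 222, 168 and 222 CPM, with intervals of the ratio that included 0 in all 3 libraries.

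Transcription factor, cytokine receptor and chemokine genes were examined in the same cells. Id2, which encodes a factor needed for innate lymphocytes, was at 1257, 1248, 1168 and 1006 CPM, and Stat4, which encodes a factor activated by IL-12, at 282, 312, 226 and 440.1 CPM. Bhlhe40, a transcription factor gene that follows activation, was at 45.6, 89.8, 116 and 126 CPM, with log2 ratios of 0.98 (0.16 to 1.89), 1.35 (0.47 to 2.31) and 1.46 (0.57 to 2.43). It was thus higher than WT in all 3 knock-out libraries, from 15 UMIs in WT. Il2rb, encoding a receptor chain of IL-2 and IL-15, was at 671, 758, 944 and 973 CPM and Il2rg, encoding the common chain, at 331, 353, 329 and 308 CPM. Il18rap, encoding a receptor chain of IL-18, was at 161, 137, 160 and 59.6 CPM, and lower in DKO by a log2 ratio of −1.43 (−2.29 to −0.64). Among the chemokine genes, Ccl5 was at 15781, 14311, 14135 and 12560 CPM, and Xcl1 at 1752, 1718, 1911 and 1979 CPM. In T-like cells, Id2 was at 829, 764, 1144 and 918 CPM, Il2rb at 295, 335, 516 and 387 CPM and Ltb, which encodes lymphotoxin-β, at 706, 744, 623 and 759 CPM. Il2rb was highest in TAZKO there, with a log2 ratio of 0.80 (0.66 to 0.95). Of the ligand and counter-receptor list, Ifngr1 was at 535, 793, 318 and 917 CPM and H2-T23 at 510.2, 427, 301 and 324 CPM in NK-like cells.

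The receptor genes Klrc2, Klrc1 and Klrb1c were highest in NK-like cells of TAZKO, and were chosen for their large ratios. Klrc2, which encodes a partner chain of CD94, was at 158 CPM in WT, 298 in YAPKO, 594 in TAZKO and 225 in DKO in NK-like cells, a log2 ratio of 1.91 (1.47 to 2.38) in TAZKO. Klrc1, encoding the inhibitory partner NKG2A, was at 103, 127, 353 and 99.3 CPM, and Klrb1c, encoding NK1.1, at 197, 205, 585 and 122 CPM. The partner of both chains, Klrd1, was lower in TAZKO than in WT, as given above. In T-like cells, Klrb1c was at 7.70, 6.61, 69.1 and 6.60 CPM, with a log2 ratio of 3.17 (2.36 to 4.10) in TAZKO. Tyrobp and Fcer1g, which encode signalling adaptors, were at 240, 111, 51.9 and 63.5 CPM and at 282, 144, 59.7 and 104 CPM in T-like cells, and so were lower than WT in all 3 knock-out libraries. Ccl3, a chemokine gene, was at 28.4, 10.4, 3.62 and 46.5 CPM in T-like cells (48, 30, 12 and 134 UMIs), with a log2 ratio of −2.97 (−4.02 to −2.04) in TAZKO. The chemokine gene Ccl4 was highest in T-like cells of DKO (91.2, 52.5, 47.4 and 304 CPM), with a log2 ratio of 1.74 (1.49 to 1.99). Hcst, which encodes DAP10, the adaptor of NKG2D, was at 742, 790, 732 and 809 CPM in T-like cells and thus near level, and Cd226, which encodes the activating receptor DNAM-1, was at 250.4, 201, 281 and 232 CPM.

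Finally, the genes most like each member over 61 points, each 1 cell class in 1 library with at least 20 cells, were ranked by Pearson's r of log2(CPM + 1) among 16367 genes. The points share libraries and cell classes, and r is given as a description. Gzma was most like Klre1 (0.91), Eomes (0.91) and Klra1 (0.90), genes of NK cells. Gzmb was most like Rab37 (0.91), Cd160 (0.90) and Ctsw (0.90), and Gzmc like Cd200r2 (0.89), Trdv4 (0.89) and Klrc3 (0.88). Gzmk had T cell genes as its nearest, Sh2d1a (0.90), Pdcd1 (0.88) and Camk4 (0.88), whereas Prf1 had Gm49751, Klrc2 and Klra1 (0.93 each). For Ifng these were Gm49751, which overlaps it, Gm20069 and Tbx21 (0.95 each), and for Fasl they were Il2rb (0.96), Trgc4 (0.96) and Trgv2 (0.95). Nkg7 was most like Ccl5 (0.95), Cd3g (0.95) and Trbc1 (0.94), Klrd1 like Il12rb2 (0.91), Cd7 (0.89) and Padi2 (0.88), and Klrk1 like Asb2 (0.90), Cd226 (0.89) and Klre1 (0.87). Among the members themselves, Gzma and Prf1 were the most alike pair (0.94).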

How the data were processed

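The authors isolated HCs and NPCs separately, sequenced 1 mixed 10x 3′ library per genotype, used Cell Ranger for alignment to mm10 (6.0.1 in the submitters' processing notes, 4.0.0 in the matrix headers) and deposited raw, unnormalized UMI counts for each barcode. Gene coordinates are those of GENCODE release M21.

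Barcodes with 500 to 6000 genes and at most 10% mitochondrial UMIs were kept. The stated limits were read as numbers of genes. Counts were log-normalized to 10000 UMIs, S and G2/M scores were regressed out, and 2000 variable genes without the 10 members, 20 components, a Harmony-type correction by library and Louvain clustering (20 neighbours, resolution 0.4) gave 22 clusters. NK-like and T-like clusters were clustered again with 15 components at resolution 0.3. Clusters were named from marker lists. The rule that leaves mixed clusters unnamed was set after the clusters were seen. Automatic Scrublet calls marked 0.012% to 0.042% of cells and were not usable, so no doublets were removed, and leaving out the top 8% of scores was an alternative. UMIs were summed per library and group and scaled to counts per 1000000 UMIs (CPM). Intervals at 95% were exact (Poisson, conditional binomial, Clopper-Pearson). A level needed 20 cells for a ratio, and counts past 2-fold needed 10 UMIs over the pair. Depth was from 3555.5 to 7337 median UMIs per kept cell.

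All members were named. From the partner lists, genes were named when among the 2 with the most UMIs of a list or the 5 with the largest ratio to WT (at least 50 UMIs), and the others after their values were seen. The members and lists were chosen with earlier results of these data known. Interval coverage was tested only on simulated Poisson counts, which is what the intervals assume. Those counts have no spread between cells, so the test cannot show coverage where UMIs are gathered in few cells. Alternatives covered the limits, clustering, doublets, totals, thinning, marker gates and, chosen after seeing the data, single high cells, CD3 UMIs and the subclustering. Python 3.11.15 was used with numpy 2.4.6, scipy 1.17.1, pandas 2.3.3, scanpy 1.11.5, igraph 0.11.9, scikit-learn 1.9.0 and matplotlib 3.10.9.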

Additional observations from a re-analysis of the deposited data

Results flagged for a closer look

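Barcodes outside the limits also held UMIs of the 10 effector genes, and in 3 sets of them the summed level was above that of the same set in WT beyond counting error. In barcodes with fewer than 500 genes, their summed level was 37.9 CPM in YAPKO (31 UMIs) and 13.5 CPM in TAZKO (57 UMIs), beside 5.97 CPM in WT (30 UMIs) and 3.86 CPM in DKO (3 UMIs). In barcodes with over 6000 genes it was 71.4 CPM in DKO (479 UMIs in 166 barcodes), beside 19.9 CPM in WT (155 UMIs in 133 barcodes). In YAPKO and TAZKO this level was 20.7 and 26.7 CPM. In barcodes with over 10% mitochondrial UMIs, WT was at 110 CPM, YAPKO at 4.18, TAZKO at 5.65 and DKO at 93.6 CPM, so no library was above WT there.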

How the results depend on the processing

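Of 57 ratios to WT in NK-like and T-like cells, 34 were beyond counting error, and 440 of the 441 values these took under the alternatives kept their direction. The exception was Gzma in NK-like cells of YAPKO, with a log2 ratio of 0.012 at a mitochondrial limit of 20%. Not every alternative could change a ratio. A limit of at least 20 UMIs over the pair used the same cells and counts, so its 55 ratios stayed the same by design. Among all ratios, 14 lay outside their main interval and 42 within it without correction by library. These numbers were 13 and 40 after thinning, and 14 and 13 with cells gated by markers. The number of members past 2-fold in NK-like cells, 0 in YAPKO, 1 in TAZKO and 3 in DKO, was 2 in YAPKO and 2 in TAZKO with the top 8% of doublet scores left out, 2 in TAZKO without the cell highest for each member, 2 in TAZKO among NK-like cells with a T cell marker UMI, and 1 in DKO without correction by library. With the limits read as UMIs, the number in T-like cells was 0 of 3 in YAPKO, 1 of 3 in TAZKO and 0 of 4 in DKO, and NK-like cells gave no value. In each case the cause was not tested. Gated by markers, NK-like cells were fewer than 20 in WT, TAZKO and DKO and gave no ratio. Without correction by library, the subclusters with the highest Gzma and Prf1 and with the highest Gzmb and Gzmc shared 168 of 196 and 313 of 339 cells with those described, and the subcluster with the highest Gzmk was not kept. No paired analysis was possible because each group has 1 sample. With 1 mouse per genotype, differences between mice and differences between genotypes cannot be told apart.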

Other observations

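Genes of receptors that receive the effectors, and of cytokines that act on cytotoxic lymphocytes, had their highest levels in different cell classes. With the 4 libraries summed, Fas, the receptor of FAS ligand, was at 149 CPM in neutrophil-like cells, 125 CPM in EC-like cells and 85.3 CPM in HSC-like cells, against 18.7 CPM in HC-like and 11.3 CPM in NK-like cells. Ifngr1, a chain of the interferon-γ receptor, was at 669 CPM in NK-like and 505 CPM in KC-like cells, while Ifngr2, the other chain, was at 0.564 CPM in NK-like and 106 CPM in KC-like cells. Of the cytokines that drive cytotoxic lymphocytes, Il18 was at 130 CPM in KC-like cells and 1.13 CPM in NK-like cells, and Il15 at 83.0 CPM in neutrophil-like and 28.7 CPM in KC-like cells.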
